A study of Mus musculus with 12 samples.

Results

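The 60 genes described here are the named genes with reads in the lower rows of a count table from mouse macrophages treated with the bacterial sugar ADP-heptose. They were chosen by their place in the table, by measured counts and by having a gene name, and not by function. In these lower rows, the last 19106 with an identifier, the columns of the Alpk1 knockout libraries sit 1 row away from the gene identifiers, so only the 6 wild-type columns were read. Of 669 lower rows with a gene name, 505 held 0 counts over these 6 libraries, 104 held 1 to 59, and 60 held 60 or more and form the set. The whole table has 56748 rows with an identifier, and 12807 of them were tested. Just outside the threshold lay Pcdhga1 with 54 counts and D5Ertd605e with 58. Just inside it lay AV356131 with 65 counts and N4bp2os with 69. D5Ertd605e held 13, 12 and 24 counts in the PBS libraries and 3, 4 and 2 in the ADP-heptose libraries, and is not a member. The threshold was set on the sum over both treatments, and the lower of a member's group totals was never under 27 counts. Among called members, 5 had under 60 counts in 1 group and passed the threshold with the help of the other. These were Gbp6 (34 counts with PBS and 273 with ADP-heptose), Eid3 (33 and 228), Pcdhgb5 (34 and 88), Pcdhac2 (46 and 102) and AA388235 (76 and 32).

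RNA came from bone-marrow-derived macrophages (BMDMs), primary cells that mature from C57BL/6N mouse marrow over 7 days when L929 fibroblast medium supplies the macrophage growth factor. Wild-type (WT) cells had received either PBS, the vehicle, or 100 µM ADP-heptose (ADP-Hep) for 4 h, with 3 libraries in each of these groups. The study also holds libraries from Alpk1 knockout mice of the same strain, which were not used here. Whether libraries of 1 group stem from different animals or cultures is not in the labels, so p-values describe only the scatter among these 6 libraries, which can be technical.

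ADP-heptose is an intermediate that Gram-negative bacteria make while building lipopolysaccharide. In mammalian cells it binds the kinase ALPK1, which phosphorylates the adaptor TIFA and so starts signalling to NF-kB, a transcription factor of inflammatory genes. Among the 60 genes are 2 guanylate-binding proteins (GTPases that interferon induces and that act against intracellular microbes), 2 paired immunoglobulin-like receptors of myeloid cells, 2 H2B histones, 8 clustered protocadherins (cell-surface adhesion proteins best known from neurons) and 4 host transcripts of small nucleolar RNAs. The other members are a mixed group of enzymes, RNA-binding and trafficking proteins, and long non-coding RNAs. The annotation of mm10 (GENCODE mouse release 21) lists 38 of them as protein coding, 21 as other kinds of gene and does not hold 1, Shld3.

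RefSeq promoter sequences (GRCm38.p6, 250 bases before to 50 bases after the start) were at hand for 29 of the 60 genes. Those of 3 strongly changed members are shown because they differ in motifs of factors of the inflammatory response. On both strands, 5 motifs were searched, spelled GAAANNGAAA for the interferon-stimulated response element (ISRE), TTCNNNGAA for the gamma-activated site (GAS), GGGNNTTTCC for NF-kB, TGACNNNGC for the antioxidant response element (ARE) and TGANTCA for AP-1. Capitals mark matches to the first 4. The promoter of Gbp5 (chr3:142496684-142496983, plus strand) holds GAS matches at bases 6 to 14 and 199 to 207, an ISRE match on the minus strand at bases 86 to 95 and an NF-kB match on the minus strand at bases 174 to 183.
Gbp5: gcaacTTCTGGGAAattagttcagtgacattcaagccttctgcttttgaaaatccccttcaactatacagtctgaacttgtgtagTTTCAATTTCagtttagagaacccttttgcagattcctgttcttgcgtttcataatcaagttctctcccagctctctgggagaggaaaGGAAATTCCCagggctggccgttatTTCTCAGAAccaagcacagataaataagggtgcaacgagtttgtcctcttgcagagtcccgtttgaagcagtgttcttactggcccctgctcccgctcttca
The promoter of Lilr4b (chr10:51480362-51480661, plus strand) holds 1 match, a GAS at bases 147 to 155.
Lilr4b: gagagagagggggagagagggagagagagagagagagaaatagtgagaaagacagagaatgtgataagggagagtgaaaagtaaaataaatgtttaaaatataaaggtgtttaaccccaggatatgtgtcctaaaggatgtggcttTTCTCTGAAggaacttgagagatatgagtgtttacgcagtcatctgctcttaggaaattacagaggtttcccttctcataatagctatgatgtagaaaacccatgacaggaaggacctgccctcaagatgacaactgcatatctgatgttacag
The promoter of Pnp (chr14:50944053-50944352, plus strand) holds none of the 5 motifs in these letters.
Pnp: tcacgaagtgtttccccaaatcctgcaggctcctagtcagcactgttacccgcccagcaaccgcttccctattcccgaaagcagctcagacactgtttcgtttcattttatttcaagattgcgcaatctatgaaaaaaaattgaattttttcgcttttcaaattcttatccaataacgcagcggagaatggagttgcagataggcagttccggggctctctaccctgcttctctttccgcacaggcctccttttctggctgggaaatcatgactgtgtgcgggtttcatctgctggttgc
Over all 32851 promoters of the RefSeq table, 3.44% hold the ISRE letters, 8.30% the GAS letters, 1.63% the NF-kB letters, 12.4% the ARE letters and 7.81% the AP-1 letters. Among the 29 members with a promoter, 2 hold the ISRE letters, 3 the GAS letters, 5 the NF-kB letters, 5 the ARE letters and 1 the AP-1 letters. Of the NF-kB holders Gbp5 rose, AA388235 fell, and Hspa14, Lncppara and Snhg8 were not called. The other ISRE holder, Flt3l, and the remaining GAS holder, Gtf3c2, were not called. Of the ARE holders Btbd8 and Samd4b rose, and Eef1akmt4, Itprip and Snhg8 were not called. The AP-1 holder, Mrpl33, rose. A match describes the sequence and does not show that a factor binds there.

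Library totals ran from 16110654 to 31333973 counts. A row with no gene name, ENSMUSG00000119584, took 15.0 to 28.4% of them and was left out of the scaling, which left 12571677 to 25887123 counts. Levels are given in CPM, read counts scaled by library size, and group values are means ± SD over 3 libraries. All 10 macrophage markers were read in the WT libraries, with a summed level of 24140 to 27660 CPM with PBS and 27940 to 29230 CPM with ADP-Hep. Lyz2 made up most of this sum, and of the 10 markers 4 rose and 4 fell, with Cd14 at 128.1 to 138.5 CPM with PBS and 1455 to 1658 CPM with ADP-Hep and Mertk at 184.2 to 193.8 and 33.5 to 39.8 CPM. The 8 neutrophil markers summed to 94.8 to 131 CPM with PBS and 129 to 152 CPM with ADP-Hep, and 2 of 7 tested rose. The 7 T cell markers summed to 1.98 to 2.48 CPM with PBS and 1.01 to 1.40 CPM with ADP-Hep, with Cd3e, Cd3g and Cd8a at 0 in all 6 libraries, and the 1 tested marker fell. Dendritic cell markers summed to 0.433 to 0.902 CPM with PBS and 1.09 to 1.36 CPM with ADP-Hep, with Xcr1 at 0, and the 1 tested marker rose. Fibroblast markers summed to at most 1.37 CPM, and erythroid and NK cell markers to at most 0.340 CPM each. The part of these other cell types in the members' changes was not tested. In bulk RNA, fewer cells of a type and less RNA per cell cannot be told apart.

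Of the 60 genes, 19 rose and 10 fell with ADP-Hep (edgeR quasi-likelihood test, Benjamini-Hochberg adjusted p under 0.05 over all 12807 genes tested), and 31 were not called. In the same test 58.8% of all genes tested were called, 28.3% higher and 30.5% lower. Called members made up 48.3% of the set, and the members' median change was 0.09 on the log2 scale against -0.02 for all genes tested. The 3 ADP-Hep libraries lay entirely above or below the 3 PBS libraries in 31 members, beside 63.2% of all genes tested. At least a doubling was seen in 7 called members, led by Gbp5, Gbp6 and Eid3, and at least a halving in AU022793 and AA388235. The members that did not pass the test ran from -0.45 to 0.77 in log2 fold change, and 24 of these 31 lay within 0.2 of no change. Together the 60 genes took 0.105 to 0.110% of the scaled reads in the PBS libraries and 0.140 to 0.154% in the ADP-Hep libraries, so the groups did not overlap. Lilr4b alone supplied 10411 of their PBS counts and 23623 of their ADP-Hep counts.

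**Figure D1:**
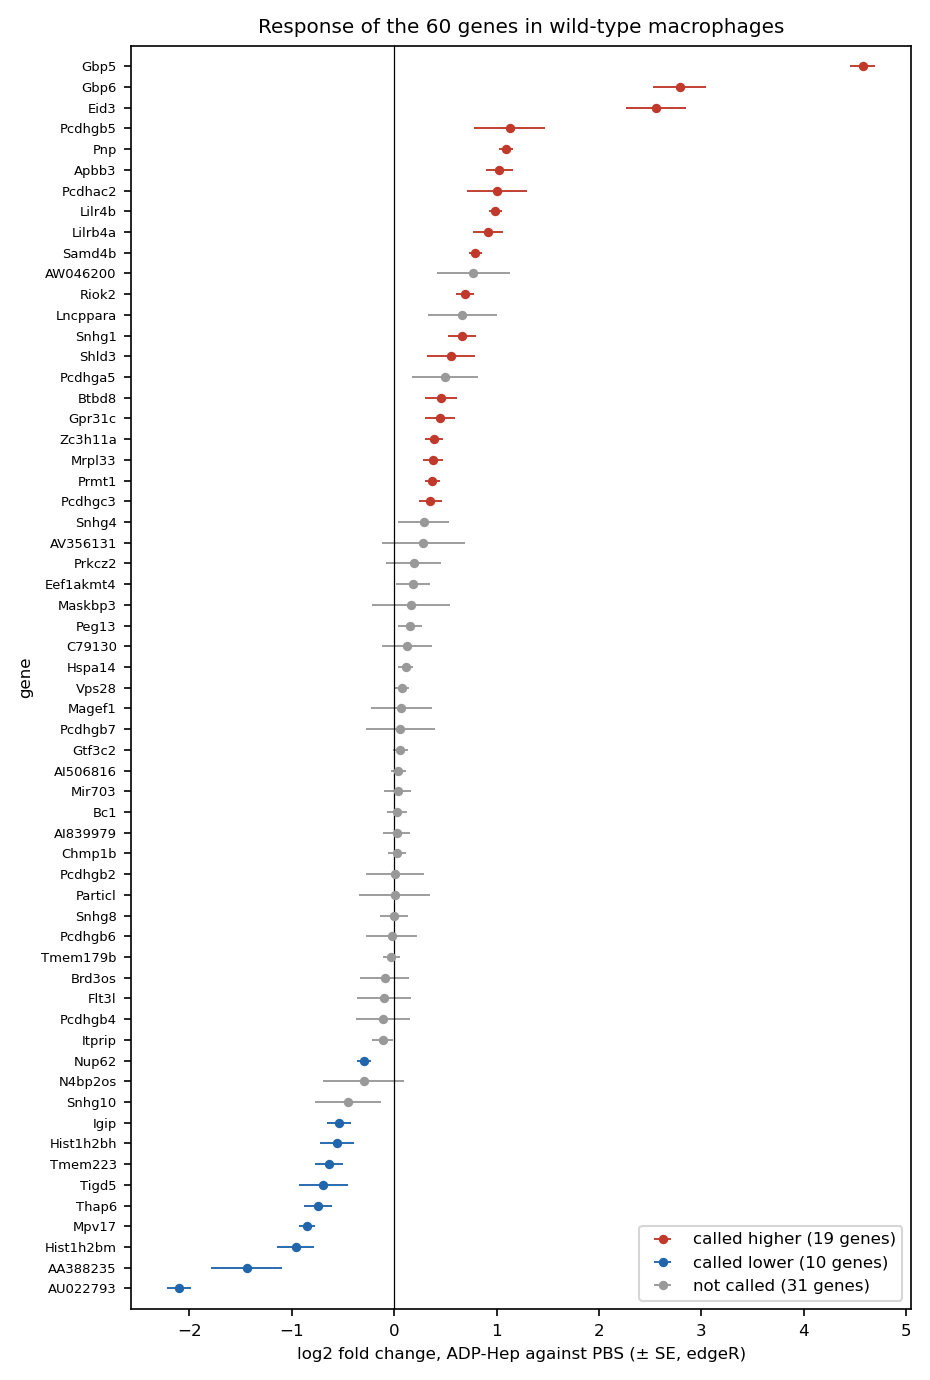
Log2 fold change of ADP-Hep against PBS in WT macrophages (x axis, ± SE from edgeR) for each of the 60 genes (y axis), with called increases in red, called decreases in blue and other genes in grey. Gbp5 at 4.57 and AU022793 at -2.10 mark the ends of the range.

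Guanylate-binding proteins gave the largest increases. Gbp5 (ENSMUSG00000105504, chromosome 3, 142493978 to 142522344, plus strand) encodes a GTPase that coats vacuoles and bacteria and promotes inflammasome activation. It held 4.27, 3.92 and 2.88 CPM in the PBS libraries and 81.4, 97.3 and 77.7 CPM in the ADP-Hep libraries. The groups lay far apart, at means of 3.69 ± 0.723 and 85.5 ± 10.4 CPM, a 23.8-fold increase (log2 fold change 4.57 ± 0.12, adjusted p = 4.9e-17). Gbp6 (ENSMUSG00000104713, chromosome 5, 105270702 to 105293698, minus strand), a GTPase of the same family, held 0.804, 0.619 and 0.515 CPM with PBS and 3.82, 5.70 and 3.44 CPM with ADP-Hep. Every ADP-Hep library was above every PBS library, and the change was 2.79 ± 0.26 (adjusted p = 1.4e-09). Per kilobase of exon, Gbp5 reached 12.9 CPM with ADP-Hep and Gbp6 0.725. Reads of Gbp6 are hard to place, since 70.7% of its 50-base transcript windows also occur in other genes, mostly in Gm43302, whereas 1.44% of those of Gbp5 do.

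Gbp5 and Gbp6 moved with most of their family. Of the 8 Gbp genes tested in upper and lower rows, 7 rose and 1 fell. Gbp2, in the upper rows, rose by 3.07 ± 0.08, Gbp4 by 2.81 ± 0.42, Gbp3 by 2.11 ± 0.09, Gbp7 by 1.61 ± 0.10 and Gbp9 by 0.32 ± 0.10 on the log2 scale, so Gbp5 had the largest fitted increase of the 8. Gbp8 went the other way, from 0.804, 0.688 and 0.859 CPM to 0.351, 0.382 and 0.252 CPM (-1.20 ± 0.40, adjusted p = 0.012), a call that the DESeq2 Wald test did not make (adjusted p = 0.0757). The wider list of interferon-linked families read from gene symbols held 74 tested genes, of which 66 rose, 1 fell and the median change was 1.68, against -0.02 over all genes.

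**Figure D2:**
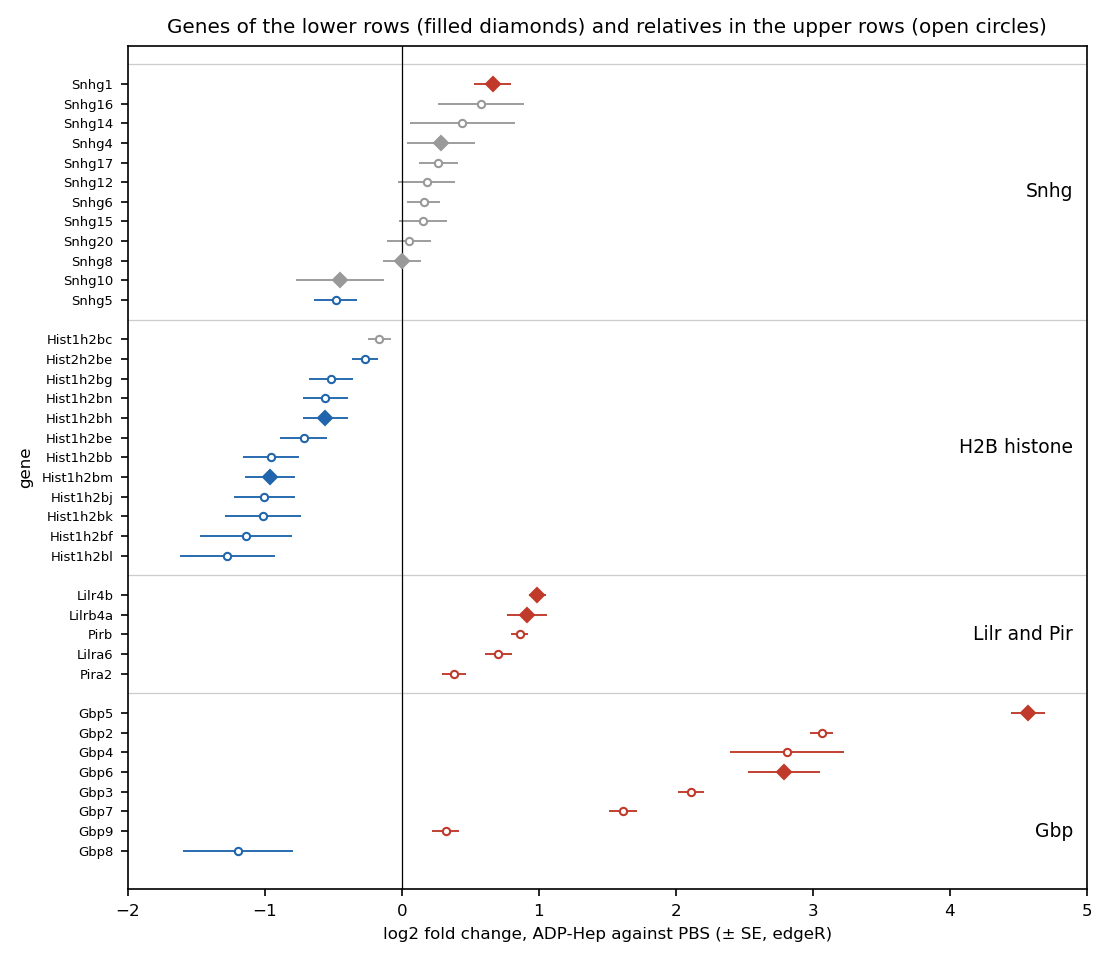
Log2 fold change of ADP-Hep against PBS (x axis, ± SE) for genes of 4 symbol families (y axis), with members of the set as filled diamonds and relatives in the upper rows as open circles, red for called higher, blue for called lower and grey for not called. The Gbp genes lie right of 0 except Gbp8, the Lilr and Pir genes lie right of 0, and the H2B genes lie left of it.

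The paired receptors were the members with most reads. Lilrb4a (ENSMUSG00000112148, chromosome 10, 51490956 to 51496611, plus strand) encodes an inhibitory receptor of myeloid cells, and its neighbour Lilr4b (ENSMUSG00000112023, chromosome 10, 51480632 to 51486703, plus strand) a closely related receptor. Lilr4b held 200, 188.6 and 190.6 CPM with PBS and 410.1, 370.6 and 368.1 CPM with ADP-Hep. Its level therefore went from 193 ± 6.07 to 383 ± 23.6 CPM, a change of 0.99 ± 0.06 on the log2 scale (adjusted p = 6.6e-13), with a wide gap between the groups. Lilrb4a held 86.1, 76.3 and 76.1 CPM with PBS and 181.2, 144.9 and 120.2 CPM with ADP-Hep. The groups did not overlap, but the ADP-Hep libraries spread more than those of Lilr4b, and the change was 0.91 ± 0.15 (adjusted p = 0.0012). Of their transcript windows 24.6% and 47.2% occur in other genes, those of Lilr4b mostly in Lilrb4a and those of Lilrb4a mostly in Gm49339. Part of the reads can therefore have been assigned to another of these genes. All 5 tested genes with Lilr or Pir symbols rose, with Pirb at 0.86 ± 0.06, Lilra6 at 0.70 ± 0.10 and Pira2 at 0.38 ± 0.09 in the upper rows. In the broader list of lectin, NK-cell and paired receptors, 49 of 110 tested genes rose and 31 fell, with a median of 0.10.

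Pnp (ENSMUSG00000115338, chromosome 14, 50931082 to 50965237, plus strand), the purine nucleoside phosphorylase of nucleotide salvage, held 59.6, 60.4 and 66.4 CPM with PBS and 129.5, 140.0 and 127.4 CPM with ADP-Hep. The 3 treated libraries lay close together, and the mean went from 62.1 ± 3.75 to 132 ± 6.79 CPM (1.09 ± 0.07, adjusted p = 3.2e-13). Of the transcript windows of Pnp 22.05% occur in other genes, mostly in Gm49342. Samd4b (ENSMUSG00000109336, chromosome 7, 28399522 to 28598144, minus strand), an RNA-binding protein of the Smaug family that represses mRNAs, went from 77.4, 80.7 and 79.6 CPM to 132.0, 136.5 and 144.1 CPM. Its groups were tight and far apart (0.79 ± 0.06, adjusted p = 5.2e-11), and none of its transcript windows occurs in another gene. Riok2 (ENSMUSG00000116564, chromosome 17, 17374309 to 17394899, plus strand), an atypical kinase that matures the small ribosomal subunit, went from 12.6, 14.7 and 15.2 CPM to 22.3, 24.0 and 22.7 CPM. That change was 0.69 ± 0.09 (adjusted p = 2.7e-07), again without overlap. Apbb3 (ENSMUSG00000117679), an adaptor that binds the amyloid precursor protein, went from 4.45, 4.06 and 3.91 CPM to 8.77, 7.44 and 9.24 CPM. Its level doubled, at 1.03 ± 0.13 (adjusted p = 2.1e-07).

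Eid3 (ENSMUSG00000109864, chromosome 10, 82866626 to 82867930, plus strand), an inhibitor of the coactivator EP300 that also belongs to a chromosome-maintenance complex, rose from a very low level. It held 1.05, 0.413 and 0.430 CPM with PBS and 3.82, 4.12 and 2.77 CPM with ADP-Hep. The lowest ADP-Hep library was above the highest PBS library, and the change was 2.56 ± 0.29 (adjusted p = 4.7e-08). The gene lies within an intron of Txnrd1, which encodes the cytosolic thioredoxin reductase, on the same strand and with no shared exon bases. Txnrd1 went from 194 ± 16.3 to 1001 ± 93.2 CPM (2.37 ± 0.08), and its 70408 counts were 269.8 times those of Eid3. How far unspliced Txnrd1 transcripts add to the Eid3 count was not tested.

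**Figure D3:**
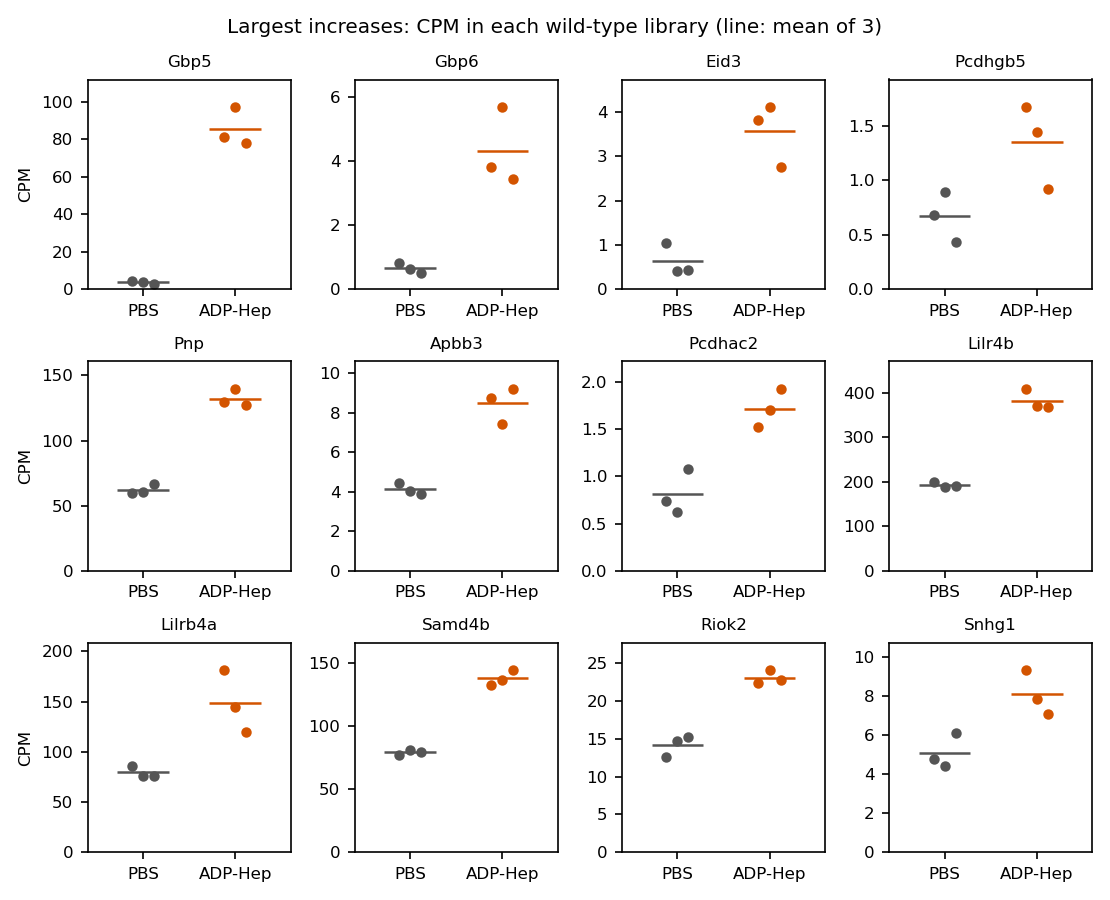
Level in CPM (y axis, from 0) of each of the 3 PBS and 3 ADP-Hep libraries (points; line, mean) for the 12 largest increases among called members without overlap. In every panel the ADP-Hep points lie above the PBS points, from 2.88 to 4.27 against 77.7 to 97.3 CPM for Gbp5 down to 4.41 to 6.10 against 7.05 to 9.32 CPM for Snhg1.

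Smaller increases were called in 6 further members, which were named after their values had been seen. Prmt1, the main enzyme for asymmetric arginine dimethylation, went from 34.6 ± 1.93 to 44.8 ± 2.39 CPM (0.37 ± 0.07). Mrpl33, a protein of the large mitochondrial ribosomal subunit, went from 15.3 ± 1.30 to 19.9 ± 1.96 CPM (0.38 ± 0.09). Zc3h11a, a zinc-finger protein of mRNA export, went from 21.01 ± 1.89 to 27.4 ± 2.81 CPM (0.39 ± 0.09). Of its transcript windows 68.0% occur in other genes, and 67.1% in a second annotated gene that also bears the symbol Zc3h11a. The ADP-Hep libraries of these 3 genes lay above their PBS libraries, with adjusted p-values of 1.0e-04, 0.0012 and 0.00046. Btbd8, a BTB-domain protein, changed by 0.46 ± 0.16 (adjusted p = 0.015) and Gpr31c, a G-protein-coupled receptor gene annotated as a pseudogene, by 0.45 ± 0.15 (adjusted p = 0.011). Neither was called by the DESeq2 Wald test (adjusted p = 0.0554 and 0.0535). Both calls were also lost in a fit of the lower rows alone (adjusted p = 0.0764 and 0.0616) and in a test against a 1.5-fold change. Btbd8 was not called without PBS replicate 2 (0.36, adjusted p = 0.081) or without ADP-Hep replicate 2 (0.35, adjusted p = 0.118). Shld3, a subunit of the shieldin complex of DNA double-strand break repair, held 1.55, 1.45 and 2.79 CPM with PBS and 2.57, 3.40 and 2.85 CPM with ADP-Hep. It was the 1 called member whose groups overlapped (0.55 ± 0.23, adjusted p = 0.046). Its call was lost without PBS replicate 1 (0.41, adjusted p = 0.153), PBS replicate 2 (0.40, adjusted p = 0.172), ADP-Hep replicate 2 (0.42, adjusted p = 0.185) or ADP-Hep replicate 3 (0.55, adjusted p = 0.0661), under the DESeq2 Wald test (adjusted p = 0.0842) and with the replicate block (0.63, adjusted p = 0.0525). The Shld3 call was also lost with library totals as the only scaling (0.48, adjusted p = 0.0983), without robust estimation (adjusted p = 0.0553), in a fit of the lower rows alone (0.58, adjusted p = 0.177) and in a test against a 1.5-fold change (adjusted p = 0.960).

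The clustered protocadherins made up 8 of the 60 genes, and 3 of them rose while 5 were not called. Each gene of the gamma cluster joins its own first exon to the same constant exons, so their reads share sequence: 35.5 to 65.2% of the transcript windows of these 8 genes occur in other genes. Pcdhgb5 (ENSMUSG00000103749) held 0.680, 0.895 and 0.430 CPM with PBS and 1.68, 1.44 and 0.924 CPM with ADP-Hep. The lowest ADP-Hep library was just above the highest PBS library, and the change was 1.13 ± 0.34 (adjusted p = 0.0065). Pcdhgb5 was not called without PBS replicate 3 (0.85, adjusted p = 0.0529) or without ADP-Hep replicate 1 (0.99, adjusted p = 0.0522). Pcdhac2 (ENSMUSG00000102697), of the alpha cluster, went from 0.742, 0.619 and 1.07 CPM to 1.52, 1.70 and 1.93 CPM (1.00 ± 0.29, adjusted p = 0.0049), with no overlap. Pcdhgc3 (ENSMUSG00000102918), which had the most counts of the 8, went from 6.18, 6.68 and 6.18 CPM to 7.64, 8.37 and 8.396 CPM. This change was small (0.36 ± 0.11, adjusted p = 0.0098), without overlap, and the call was lost without ADP-Hep replicate 2 (0.33, adjusted p = 0.052). Pcdhga5 gave 0.50 ± 0.33 with overlapping groups, and the remaining Pcdhgb2, Pcdhgb4, Pcdhgb6 and Pcdhgb7 lay between -0.11 and 0.06. Each of the 8 but Pcdhgc3 held 92 to 207 counts over the 6 libraries.

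The small nucleolar RNA host genes, whose introns carry the small RNAs and whose spliced transcripts are mostly non-coding, gave 1 call among 4 members. Snhg1 (ENSMUSG00000108414, chromosome 19, 8723475 to 8726443, plus strand) held 4.76, 4.41 and 6.10 CPM with PBS and 9.32, 7.86 and 7.05 CPM with ADP-Hep. It rose by 0.66 ± 0.14 (adjusted p = 2.0e-04) with no overlap between the groups. Its start lies 106 bases from that of Slc3a2, the heavy chain of amino acid transporters, on the other strand, and Slc3a2 rose by 0.62 ± 0.06. Snhg8 at 0.00 ± 0.14, Snhg4 at 0.29 ± 0.25 and Snhg10 at -0.45 ± 0.32 were not called. Snhg10 nevertheless had no overlap, with 1.11, 0.826 and 1.12 CPM against 0.819, 0.680 and 0.756 CPM. Of 12 Snhg genes tested over all rows, Snhg1 was called higher, Snhg5 lower (-0.48 ± 0.16) and 10 were not called. The Snhg5 call was lost without ADP-Hep replicate 1 (adjusted p = 0.0568) and under the DESeq2 Wald test (adjusted p = 0.0737).

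The largest decreases were in long non-coding RNAs. AU022793 (ENSMUSG00000115230, chromosome 15, 39962649 to 39967024, plus strand), an intergenic RNA, held 14.9, 14.04 and 16.8 CPM with PBS and 3.86, 3.44 and 3.27 CPM with ADP-Hep. Its level dropped from 15.2 ± 1.38 to 3.52 ± 0.301 CPM, 4.285-fold lower (log2 fold change -2.10 ± 0.12, adjusted p = 4.8e-14). None of its transcript windows occurs in another gene. AA388235 (ENSMUSG00000118084, chromosome 17, 33981494 to 33982777, plus strand), also an intergenic RNA, went from 1.36, 1.93 and 1.12 CPM to 0.624, 0.382 and 0.588 CPM. The groups did not overlap, at a low level of 76 counts against 32 (-1.44 ± 0.35, adjusted p = 0.00091).

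Both H2B histone members fell. Hist1h2bm (ENSMUSG00000114279, chromosome 13, 21722044 to 21722567, plus strand) held 5.07, 4.47 and 4.34 CPM with PBS and 1.79, 2.93 and 2.44 CPM with ADP-Hep (-0.96 ± 0.18, adjusted p = 7.1e-05). Hist1h2bh (ENSMUSG00000114456, chromosome 13, 23541714 to 23543392, minus strand) held 4.39, 4.13 and 4.12 CPM with PBS and 2.46, 3.27 and 2.85 CPM with ADP-Hep (-0.56 ± 0.17, adjusted p = 0.0054). Neither gene's groups overlapped, but the call of Hist1h2bh was lost without ADP-Hep replicate 1 (-0.39, adjusted p = 0.0687). Replication-dependent histone genes are transcribed mainly in S phase and give mRNAs that mostly lack a poly(A) tail, and the libraries were made with an mRNA kit. Over all rows 11 of 12 tested H2B genes fell, from Hist2h2be at -0.27 ± 0.09 to Hist1h2bl at -1.27 ± 0.35, and Hist1h2bc (-0.16 ± 0.08) was not called. Of all 57 histone genes tested 40 fell and 2 rose, with a median of -0.68. Without ADP-Hep replicate 1, 7 H2B genes and 24 histone genes were called lower, and Hist1h2bf, Hist1h2bg, Hist1h2bh and Hist2h2be were not called. Of the transcript windows of Hist1h2bm 43.8% occur in other genes, so reads can have moved between close copies.

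Protein-coding decreases were smaller. Mpv17 (ENSMUSG00000107283, chromosome 5, 31140654 to 31154251, minus strand), an inner mitochondrial membrane protein needed to maintain mitochondrial DNA, held 33.0, 34.4 and 38.2 CPM with PBS and 19.4, 19.9 and 19.4 CPM with ADP-Hep. The ADP-Hep libraries were almost equal and all below the PBS libraries (-0.85 ± 0.08, adjusted p = 8.7e-10). Tmem223 (ENSMUSG00000117924, chromosome 19, 8770996 to 8772475, plus strand), a transmembrane protein, went from 7.85, 9.29 and 7.30 CPM to 4.33, 5.61 and 5.96 CPM (-0.64 ± 0.14, adjusted p = 0.00027). Its neighbour Tmem179b, also a member, did not pass the test (-0.03 ± 0.09). Igip (ENSMUSG00000110185), the IgA-inducing protein, went from 10.8, 9.43 and 11.0 CPM to 8.03, 7.31 and 5.79 CPM (-0.53 ± 0.12, adjusted p = 0.00037), without overlap. Nup62 (ENSMUSG00000109511, chromosome 7, 44816088 to 44830812, plus strand), a nucleoporin of the central channel of the nuclear pore, held 82.9, 78.3 and 78.7 CPM with PBS and 61.2, 62.9 and 73.0 CPM with ADP-Hep. That decrease was the smallest among the called members (-0.29 ± 0.07, adjusted p = 0.00097), though its groups did not overlap either.

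Thap6 and Tigd5 belong to gene families whose proteins carry DNA-binding domains related to transposases. Thap6 (ENSMUSG00000102644, chromosome 5, 91962389 to 91972066, plus strand), listed as a transcribed unitary pseudogene, went from 7.36, 9.50 and 9.15 CPM to 5.77, 5.36 and 3.95 CPM. The groups did not overlap (-0.74 ± 0.14, adjusted p = 4.4e-05). Tigd5 (ENSMUSG00000103906, chromosome 15, 75909735 to 75914535, plus strand) went from 2.72, 1.86 and 2.71 CPM to 1.36, 1.74 and 1.43 CPM. Its PBS replicate 2 was close to the ADP-Hep libraries, and the change was -0.69 ± 0.24 (adjusted p = 0.015). Tigd5 was not called without PBS replicate 1 (-0.62, adjusted p = 0.0577), PBS replicate 3 (-0.60, adjusted p = 0.0705) or ADP-Hep replicate 1 (-0.56, adjusted p = 0.0857), nor by the DESeq2 Wald test (-0.67, adjusted p = 0.0667).

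**Figure D4:**
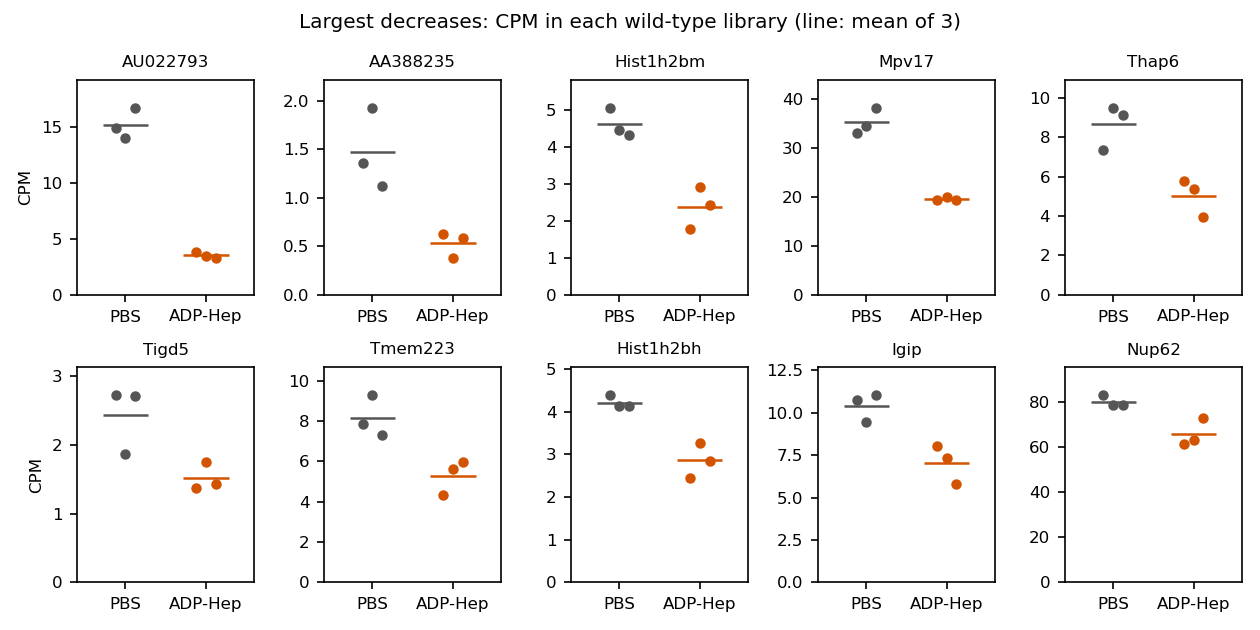
Level in CPM (y axis, from 0) of each of the 3 PBS and 3 ADP-Hep libraries (points; line, mean) for the 10 called decreases. In every panel the ADP-Hep points lie below the PBS points, widest apart for AU022793 at 14.04 to 16.8 against 3.27 to 3.86 CPM.

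Several members with many reads were not called. AI506816, a processed transcript that belongs to the 8 members with the highest mean CPM, held 76.1, 78.1 and 68.6 CPM with PBS and 70.0, 77.0 and 82.4 CPM with ADP-Hep (0.04 ± 0.07, adjusted p = 0.658). Chmp1b and Vps28 encode subunits of the ESCRT complexes, which sort membrane proteins into endosomal vesicles. Vps28 went from 48.4 ± 0.779 to 51.2 ± 4.58 CPM (0.07 ± 0.07, adjusted p = 0.394). Chmp1b held 50.9, 55.3 and 67.2 CPM with PBS and 62.8, 58.2 and 55.8 CPM with ADP-Hep (0.03 ± 0.09, adjusted p = 0.821). Its PBS replicate 3 was the highest of the 6 libraries, and without it Chmp1b was called higher (0.16, adjusted p = 0.0467). Also not called, and named after their values had been seen, were Hspa14, an Hsp70-family protein (0.11 ± 0.08), Gtf3c2, a subunit of the transcription factor TFIIIC (0.06 ± 0.08), Tmem179b, Itprip, which binds the inositol trisphosphate receptor (-0.11 ± 0.10), and Flt3l, the ligand of the FLT3 receptor (-0.10 ± 0.26). Hspa14 had no overlap, at 29.7 ± 2.17 against 32.1 ± 0.668 CPM.

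Most non-coding members did not pass the test. Of the 21 members that the annotation does not list as protein coding, 2 rose, 3 fell and 16 were not called. Of 38 protein-coding members 16 rose, 7 fell and 15 were not called. The shares called were 23.8% and 60.5%, beside 58.8% of all genes tested and 35.4% of those with 60 to under 300 counts. The non-coding members also had fewer reads, with a median level of 1.65 CPM against 6.98. Bc1, a short RNA polymerase III transcript known from rodent neurons, had the highest level per length of the 59 genes with a length in the annotation. It held 96.1 CPM per kilobase with PBS and 97.6 with ADP-Hep. Its libraries held 17.5, 15.8 and 15.2 CPM with PBS and 14.8, 18.4 and 15.9 CPM with ADP-Hep, a change of 0.03 ± 0.10, and 31.1% of its 50-base windows occur in other genes. Mir703 held 49.1 CPM per kilobase with PBS and 50.4 with ADP-Hep, with a change of 0.04 ± 0.13. Per kilobase Mir703 was above Lilr4b with PBS (35.5 CPM) and below it with ADP-Hep (70.4 CPM). The exon length is 168 bases for Bc1, 109 for Mir703 and 5439 for Lilr4b, so each read weighs more in the short genes. The count over the hairpin gene of Mir703 does not separate hairpin from mature RNA. Its mature sequence, the only one of a microRNA in the set, is shown from RefSeq (GRCm38.p6, chr5:98475616-98475636, minus strand) with the seed, bases 2 to 8, in capitals.
Mir703: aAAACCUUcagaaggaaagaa
Peg13, an imprinted RNA that lies in an intron of Trappc9, gave 0.15 ± 0.12 and had overlapping groups. AW046200 (0.77 ± 0.36, adjusted p = 0.0666) and Lncppara (0.67 ± 0.33, adjusted p = 0.0909) had the largest changes that were not called, the latter with no overlap. AW046200 was called without PBS replicate 1 (1.12, adjusted p = 0.0181) or without ADP-Hep replicate 3 (0.95, adjusted p = 0.0233), and Lncppara without PBS replicate 1 (0.91, adjusted p = 0.0494).

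The share of members called was lowest among those with the fewest reads. Among the 24 members with 60 to under 300 counts 6 were called, or 25.0%, beside 35.4% of all genes in that range. From 300 to under 1500 counts 12 of 18 members were called, or 66.7%, beside 58.1% of all genes. With 1500 counts or more 11 of 18 members were called, or 61.1%, beside 66.4% of all genes. The members with few reads include AV356131 (0.29 ± 0.41) and N4bp2os (-0.30 ± 0.40), whose SE exceeds their change. C79130, Prkcz2, Maskbp3, Magef1, Particl and Brd3os had 72 to 227 counts and lay between -0.09 and 0.19, with SEs of 0.24 to 0.38. Eef1akmt4, a methyltransferase of the elongation factor eEF1A, gave 0.18 ± 0.17 at 473 counts, and the intergenic RNA AI839979 gave 0.03 ± 0.13 at 626.

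Many of the 60 genes lie at or beside another gene. On the same strand 29 members share exon bases with another annotated gene, and 21 share over 10% of their exon length. Outside the set, 37 pairs of a member and a tested gene that overlaps it, or starts within 1000 bases on the other strand, were found for 33 members. In 11 pairs both genes were called, 10 of them in the same direction. Of all genes tested 58.8% were called, 28.3% higher and 30.5% lower. Samd4b and Pnp recur among these pairs and some pairs share exon bases, so the pairs are not independent. Whether such pairs differ from other genes was not tested. The 7 pairs of protocadherins all had Pcdhga12 as the other gene.

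Neighbours on opposite strands moved together, apart or alone. Thap6 and Rchy1, a ubiquitin ligase gene whose start overlaps it, fell together (-0.74 and -0.69), and 16.5% of the exon bases of Thap6 lie opposite exons of Rchy1. Nup62 and Atf5, a stress-response transcription factor, also fell together (-0.29 and -0.41). Pnp rose while Pip4p1 fell (1.09 and -0.36), the 1 pair called in opposite directions. Pip4p1 starts 226 bases from the GENCODE start of Pnp (50931082), on the other strand. The RefSeq promoter of Pnp shown above begins at base 50944053 and belongs to a different start. Apbb3 rose by 1.03 and Slc35a4, which overlaps its start, by 0.24. Particl, antisense to the start of Mat2a, gave 0.01 ± 0.35 at 98 counts while Mat2a, the methionine adenosyltransferase that makes S-adenosylmethionine, rose by 0.70 ± 0.07. Tigd5 fell by 0.69 on the log2 scale while Eef1d, 179 bases away, gave 0.01 ± 0.06. The strand setting of the counting is not given in the sources used here, and how far reads of these neighbours were exchanged was not tested.

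On the same strand, Zc3h11a and Gm38394 share 72.8% of the exon bases of Zc3h11a and changed alike (0.39 and 0.41). Gm38394 had 5.14 times the counts of Zc3h11a, and how far reads were exchanged between them was not tested. Maskbp3 shares 72.7% of its exon bases with Ankhd1, which had 204.5 times its counts and fell (-0.30 ± 0.06), while Maskbp3 itself gave 0.16 ± 0.38. Pnp2, a relative of Pnp that lies within its annotated span, went from 0.7001 ± 0.086 to 3.02 ± 0.452 CPM (2.10 ± 0.26). Vps28 shares 3.69% of its exon bases with Tonsl, which fell (-0.68 ± 0.10) while Vps28 gave 0.07. Gnal, which holds Chmp1b in an intron, went from 0.909 ± 0.194 to 0.427 ± 0.080 CPM (-1.10 ± 0.38). The Gnal call was lost without ADP-Hep replicate 1 (-0.90, adjusted p = 0.0833) and under the DESeq2 Wald test (adjusted p = 0.0826).

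**Figure D5:**
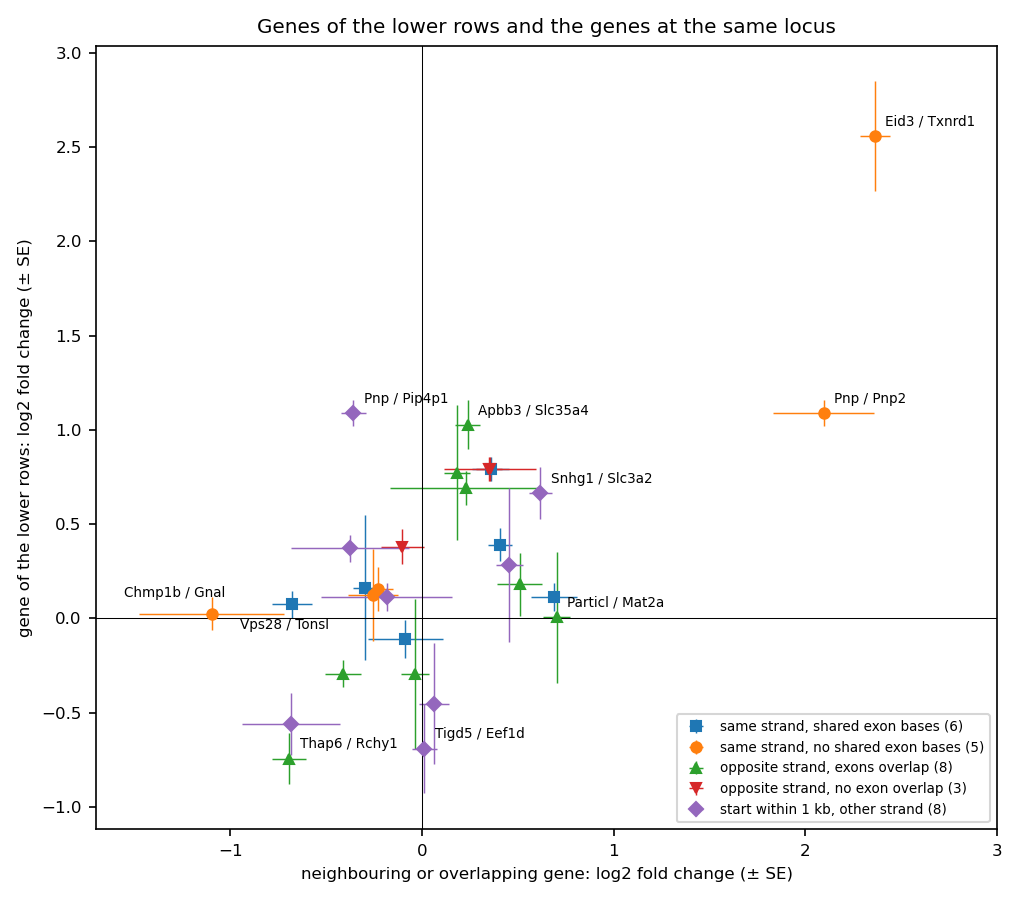
Log2 fold change of a gene at the same locus (x axis, ± SE) against that of the member (y axis, ± SE) for 30 pairs, the 7 protocadherin pairs left out, with the mark giving how the genes lie. Eid3 and Txnrd1 lie together at the upper right (2.56 and 2.37), Thap6 and Rchy1 together at the lower left, and Pnp and Pip4p1 on opposite sides of 0.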

How the data were processed

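The values are raw counts of reads per gene, as the authors deposited them in 1 table. Builds mm10 and hg38 and the tools STAR, featureCounts, RSEM, DESeq2, FastQC and Trim Galore are credited to the submitters' processing notes. Nothing in the sources used here gives their versions, the annotation release or the strand setting. The offset of the knockout columns was checked on 538 protein-coding lower rows: mean log2(count + 1) was 0.910 for WT, 0.455 for knockout libraries in the same row and 0.880 in the next row.

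Libraries were scaled by TMM without ENSMUSG00000119584, and genes with 60 or more counts over the 6 WT libraries were fitted together (R 4.3.3, edgeR 4.0.16, quasi-likelihood test with robust estimation, Benjamini-Hochberg adjustment), which was tested on simulated data. SE is the absolute log2 change divided by the square root of F, an approximation. The biological coefficient of variation was 5.86%. The counts of replicate pairs differed by more than sampling noise (chi-square over its degrees of freedom, 2.13 to 9.03). Alternatives included limma 3.58.1 (voom) and DESeq2 1.42.0. Coordinates and 50-base transcript windows are from GENCODE mouse release 21, which held 59 of the 60 members, 55 under the same symbol.

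The members, families and lists were chosen with earlier results of these data known. A rule named 32 members: the 12 largest increases and decreases called without overlap, the 8 highest mean CPM, up to 4 per symbol family and those nearest the threshold. The other 28 were named after their values were seen. The result of 1 further cell type marker list is not reported here.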

Additional observations from a re-analysis of the deposited data

How the results depend on the processing

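Against the 1.5-fold threshold of glmTreat 7 members were higher and 4 lower, beside 1082 and 1081 of all genes. It called 2 of the H2B genes and 11 of the histone genes lower, 2 of the Lilr and Pir genes, 23 of the broader receptor list and 0 of the protocadherin members higher, and 12 of that receptor list lower. In a fit of the lower rows alone, 832 genes, 114 genes were higher and 73 lower. Of the members, 15 were higher and 9 lower in that fit. The main fit called more of these rows. It had 175 of the 772 lower rows without a gene name higher and 92 lower, beside 19 and 10 of the 60 members. Under the other settings counts of called members and of all genes stayed within 1.5 times the main count. Leaving out 1 library gave 16 to 20 members higher and 8 to 10 lower. Over 1056 comparisons of the 60 members with a setting, 1009 kept their side of the threshold, 43 calls in 18 members were lost, 4 were gained and 0 changed sign. Apart from glmTreat, 7 members lost a call, Btbd8, Gpr31c, Hist1h2bh, Pcdhgb5, Pcdhgc3, Shld3 and Tigd5. Library totals as the only scaling moved the median change of all genes from -0.017 to -0.103 and the share of calls that were higher from 48.15 to 38.75%, and that of members from 65.52 to 64.29%. Deviations from the group means correlated at 0.206, -0.135 and -0.0256 between same-numbered libraries, and at -0.114 to 0.186 between differently numbered ones. With 3 libraries per group these values cannot tell whether the numbers pair the libraries. With a replicate block 18 members were higher and 10 lower (all genes 3471 and 3687), and 28 called members were shared. Members under 300 counts rest on few reads.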
